A study of Rattus norvegicus with 8 samples.

Results

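Myelin is the sheath that oligodendrocytes wrap around axons, and its proteins come late in the life of the lineage. A precursor that leaves the cell cycle first switches on early differentiation genes such as Bcas1 and Enpp6, and the transcription factor Myrf then drives the genes of the sheath. Some of those genes, Cnp and Mbp among them, are already transcribed at a lower level in precursors, while Mog is known as a late gene of mature cells. The 9 genes described here were chosen by name as rows of the table: Mbp, Mobp, Mag, Mog, Cldn11 and Cnp, which encode proteins of the sheath, together with Myrf, Bcas1 and Enpp6. All 9 matched a single row each among 32662 genes.

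The RNA came from cultured precursors of oligodendrocytes from Sprague Dawley rats. In 4 libraries the cells had been deprived of oxygen and glucose for 6 h (OGD, which stands in culture for a loss of blood supply), and 4 Control libraries came from cells held in normal conditions for the same 6 h. The cells of both groups were the loosely attached fraction of mixed glial cultures from the cerebral cortex of pups aged 1 to 2 days, first grown in 20% serum. They were then held for 4 to 5 days in a serum-free medium with 2% B27, 2 mM glutamine and 1% penicillin/streptomycin, with PDGF and FGF at 10 ng/ml each, on poly-DL-ornithine. PDGF and FGF are known to keep such cells dividing as precursors, and the labels name no differentiation medium. Nothing in the labels says that the libraries of a group came from separate cultures, so the p-values measure the spread between these libraries, which may be technical.

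Values were FPKM, fragments scaled to gene length and to the library's total, so levels of different genes can be set side by side. Total fragments per library are unknown; steps between low values gave relative depths of 0.817 to 1.18 with Control replicate 1 set to 1. The precursor label was read against its markers: Pdgfra, the PDGF receptor of precursors, was at 152 ± 8.22 FPKM in OGD and 276 ± 31.9 FPKM in Control libraries (SD, n = 4 each), and Cspg4, the NG2 proteoglycan, at 38.2 ± 5.56 and 82.5 ± 11.1 FPKM. The mature markers Mal, Opalin and Ermn, proteins of finished myelin, were at or under 0.180 FPKM in every OGD library and at or under 0.329 FPKM in every Control library.

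The stretches upstream of 5 of these genes are shown because 3 of them share a motif known for MYRF and because they let a reader see how the genes differ upstream. They are the 250 bases before the annotated start, 5′ to 3′ on the gene's own strand, from RefSeq on build GRCr8, which is not the build of the expression table. Cnp lies at chr10:86011254-86011503 (plus strand), Mag at chr1:95291045-95291294 (minus strand), Cldn11 at chr2:114149540-114149789 (minus strand), Mobp at chr8:128746982-128747231 (plus strand) and Enpp6 at chr16:52026729-52026978 (minus strand). Capitals mark the letters CTGGCAC or CTGGTAC, which are known as the core that MYRF binds, and ACAAAG, a core bound by SOX factors such as SOX10, each searched on both strands.
Cnp: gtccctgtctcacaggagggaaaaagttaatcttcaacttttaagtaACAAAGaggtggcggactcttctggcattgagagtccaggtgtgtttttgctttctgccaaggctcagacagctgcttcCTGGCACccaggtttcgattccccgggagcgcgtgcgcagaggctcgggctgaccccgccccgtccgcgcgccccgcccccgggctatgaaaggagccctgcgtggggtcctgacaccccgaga
Mag: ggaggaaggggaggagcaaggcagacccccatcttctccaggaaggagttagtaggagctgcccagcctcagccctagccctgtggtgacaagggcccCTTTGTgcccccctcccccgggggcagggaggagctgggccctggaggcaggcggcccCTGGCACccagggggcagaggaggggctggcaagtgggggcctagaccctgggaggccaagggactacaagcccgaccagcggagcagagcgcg
Cldn11: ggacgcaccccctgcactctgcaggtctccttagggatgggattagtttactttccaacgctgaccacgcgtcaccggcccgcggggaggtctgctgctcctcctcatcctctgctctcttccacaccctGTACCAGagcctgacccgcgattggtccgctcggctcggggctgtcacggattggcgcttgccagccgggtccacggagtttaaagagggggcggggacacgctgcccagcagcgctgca
Mobp: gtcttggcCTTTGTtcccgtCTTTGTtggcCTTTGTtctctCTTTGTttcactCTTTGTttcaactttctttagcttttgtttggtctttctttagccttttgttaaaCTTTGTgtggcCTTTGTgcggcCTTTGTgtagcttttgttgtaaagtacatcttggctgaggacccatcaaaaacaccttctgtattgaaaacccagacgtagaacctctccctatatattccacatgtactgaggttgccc
Enpp6: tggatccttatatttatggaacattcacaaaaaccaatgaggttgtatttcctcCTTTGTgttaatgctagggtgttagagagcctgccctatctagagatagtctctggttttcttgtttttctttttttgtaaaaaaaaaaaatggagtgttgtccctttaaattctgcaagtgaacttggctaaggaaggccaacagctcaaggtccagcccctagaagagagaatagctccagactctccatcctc

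The MYRF core stood once each in the windows of Cnp, Mag and Cldn11, 3 of the 6 genes with a window in the RefSeq table, and in 5.48% of all 33469 windows of that length. In Cnp it began 124 bases before the start, in Mag 94 and in Cldn11 120, on the opposite strand in the last. Around it Cnp and Mag shared 13 letters, CCTGGCACCCAGG, the longest run common to any pair of the 5 printed windows and one found in 4 of the 33469 windows. The other windows that held it were those of Otud3 and of LOC120099789, a noncoding RNA gene that overlaps Mag. The SOX core was found once in Cnp, Mag, Enpp6 and 1 of the 2 windows listed for Mbp, which are not printed, and 8 times in the window of Mobp. It occurred in 16.3% of all windows, and 4 windows (0.0120%) held at least 5 copies. ACGTG, the core bound by hypoxia-inducible factors, was in none of the windows of these genes, against 16.6% of all windows, which says only that these letters are not in these 250 bases. Myrf, Mog and Bcas1 were not matched. A match of letters is a description of the sequence and not a site.

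The comparison asked how 6 h of OGD changed the transcripts of the sheath and of early differentiation. Of the 9 genes, all of which passed the filter on low values, 7 were lower in OGD, 1 (Mog) was higher and 1 (Mobp) did not pass the test, where 26.8% of the 11149 tested genes were lower and 22.7% higher (limma on log2(FPKM + 1), Benjamini-Hochberg adjusted p under 0.05). In the same 7 genes the highest OGD value was under the lowest Control value, which held for 24.1% of tested genes. The median log2 change of the 9 genes was -0.88, against -0.04 for all tested genes. A fall of at least 2-fold on the log2(FPKM + 1) scale was found for 4 of the 9 genes (Cldn11, Mag, Mbp and Enpp6) and for 2.15% of tested genes. In such bulk samples, fewer cells of a kind and less RNA per cell cannot be told apart.

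**Figure D1:**
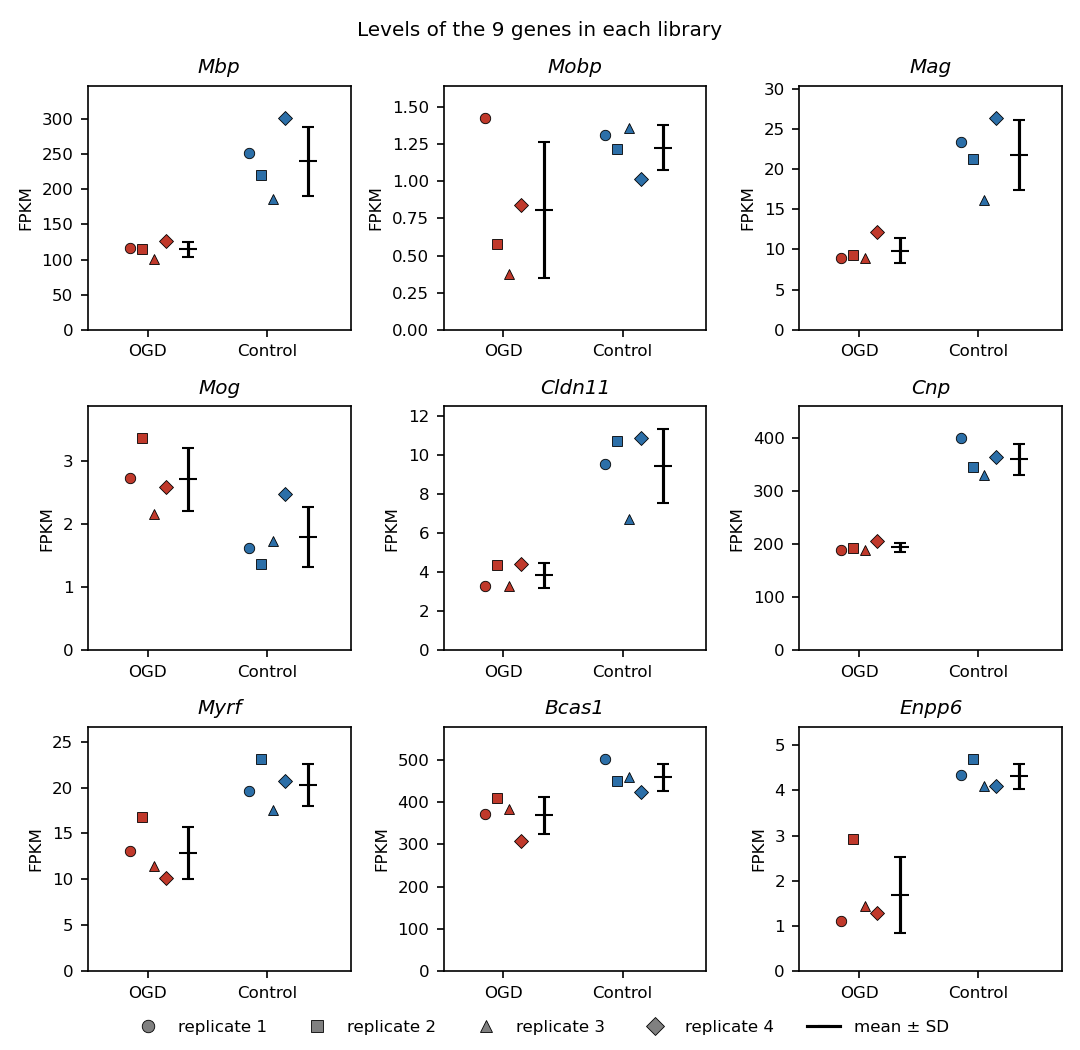
Level in FPKM (vertical axes, linear from 0, scaled for each gene) of the 9 genes in 4 OGD libraries (red, left) and 4 Control libraries (blue, right); symbols give the replicate number and bars the mean ± SD. OGD points lie below all Control points for 7 genes, while Mobp and Mog overlap between groups.

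Mbp (ENSRNOG00000016516), the basic protein that glues the cytoplasmic faces of compact myelin together, was at 117, 115, 101 and 127 FPKM in OGD replicates 1 to 4, and at 251, 220.0, 186 and 302 FPKM in Control replicates 1 to 4. The 4 OGD libraries sat close together, whereas the Control libraries were spread widely, with replicate 3 lowest and replicate 4 highest. Its OGD mean of 115 ± 10.7 FPKM was 47.9% of the Control mean of 239.8 ± 49.0 FPKM (SD, n = 4 each). On the log2(FPKM + 1) scale it fell by 1.04 (SE 0.13, 95% confidence interval -1.32 to -0.75; limma, adjusted p = 0.000101). The Mbp gene also gives rise to golli transcripts, which start far upstream and occur outside myelin, and the table's single value does not tell them apart.

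Mobp (ENSRNOG00000018700), a second basic protein of compact myelin, was the lowest of the 9 genes. It had 1.43, 0.580, 0.375 and 0.841 FPKM in OGD replicates 1 to 4, against 1.31, 1.21, 1.36 and 1.01 FPKM in Control replicates 1 to 4. OGD replicate 1 was above all Control libraries and the other 3 OGD libraries were below them, so the groups overlapped. The log2 change was -0.33 ± 0.18 (SE), with an interval of -0.72 to 0.06 (limma, adjusted p = 0.141). Without OGD replicate 1 it was -0.48 and passed (adjusted p = 0.0263; range over 18 alternatives 0.0263 to 1).

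Mag (ENSRNOG00000021023), the adhesion protein of the innermost wrap that faces the axon, was at 8.90, 9.38, 9.002 and 12.2 FPKM in OGD replicates 1 to 4, and at 23.4, 21.2, 16.1 and 26.4 FPKM in Control replicates 1 to 4. Every OGD library was below the lowest Control library, replicate 3. The log2 change was -1.06 ± 0.14 (SE; limma, adjusted p = 0.000165), from means of 9.86 ± 1.55 FPKM in OGD and 21.8 ± 4.33 FPKM in Control libraries (SD, n = 4 each). Mag is overlapped by 2 noncoding RNA genes in RefSeq, and whether strand was used in making the FPKM values is unknown here.

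Mog (ENSRNOG00000000775), a glycoprotein on the outermost face of the sheath, went the other way. It was at 2.73, 3.35, 2.16 and 2.58 FPKM in OGD replicates 1 to 4, against 1.62, 1.37, 1.73 and 2.47 FPKM in Control replicates 1 to 4. Of the OGD libraries 3 were above all Control libraries, but Control replicate 4 was above OGD replicate 3, so the groups overlapped. The log2 change of 0.41 ± 0.15 (SE) had an interval of 0.08 to 0.73 and passed narrowly (limma, adjusted p = 0.0393). The call was lost in 11 of 18 alternatives, among them leaving out OGD replicate 1, 2 or 4 or Control replicate 1, 2 or 3, with adjusted p over all alternatives from 0.0121 to 1 and the change positive throughout. Mog was low in both groups, 2.71 ± 0.496 FPKM in OGD and 1.80 ± 0.474 FPKM in Control libraries (SD, n = 4 each), and Zfp57, a zinc finger gene, overlaps it in the RefSeq table.

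Cldn11 (ENSRNOG00000010263), the claudin of the tight junctions between myelin wraps, had the largest fall of the 9 genes on the log2(FPKM + 1) scale. It was at 3.29, 4.37, 3.27 and 4.40 FPKM in OGD replicates 1 to 4 and at 9.51, 10.7, 6.73 and 10.8 FPKM in Control replicates 1 to 4. The highest OGD library stayed below the lowest Control library, which was replicate 3, as for Mbp and Mag. Its mean in OGD was 40.6% of that in Control, and limma gave -1.10 ± 0.15 (SE) in log2 units at an adjusted p of 0.000163.

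Cnp (ENSRNOG00000017496), an enzyme that keeps cytoplasmic channels open in myelin and is abundant early in the lineage, varied little between OGD libraries. Its level was 189, 192, 189 and 206 FPKM in OGD replicates 1 to 4, and 399, 345, 329 and 363 FPKM in Control replicates 1 to 4. The coefficient of variation was 4.23% in OGD and 8.31% in Control libraries, the smallest of the 9 genes in OGD. The log2 change was -0.88 ± 0.07 (SE), with an interval of -1.04 to -0.72 (limma, adjusted p = 6.15e-06), and Cnp was the gene of the 9 that also passed a test against a change of 1.5-fold (adjusted p = 0.0289).

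**Figure D2:**
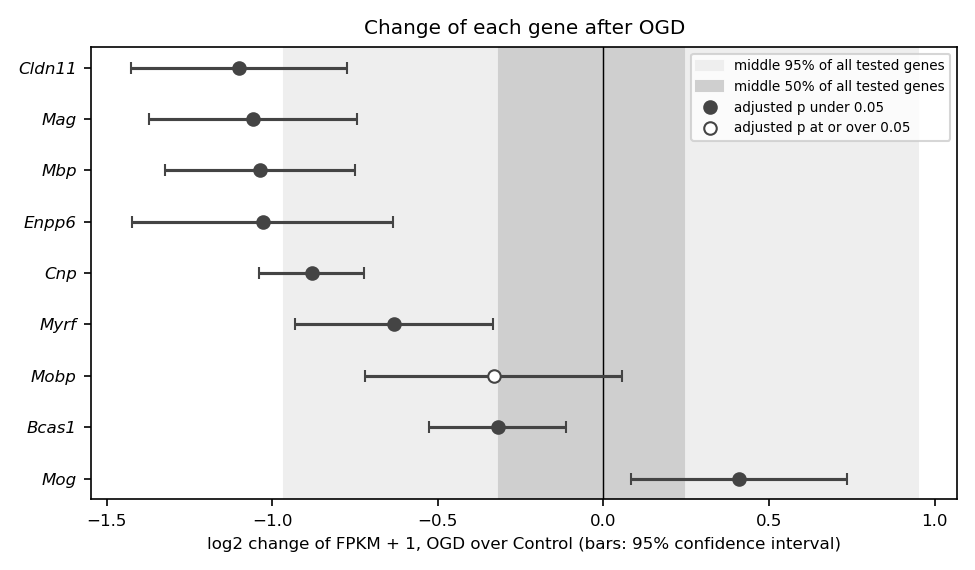
Log2 change of FPKM + 1, OGD over Control (horizontal axis), for each gene with its 95% confidence interval; filled points passed an adjusted p of 0.05. Grey bands hold the middle 50% (-0.31 to 0.24) and the middle 95% (-0.96 to 0.95) of the 11149 tested genes; Cldn11, Mag, Mbp and Enpp6 lie beyond the wider band.

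Myrf (ENSRNOG00000028274), the membrane-bound factor that cuts itself free and activates myelin genes, was at 13.1, 16.8, 11.5 and 10.1 FPKM in OGD replicates 1 to 4, against 19.6, 23.1, 17.6 and 20.7 FPKM in Control replicates 1 to 4. The groups did not overlap, although OGD replicate 2 came close to Control replicate 3. The mean was 63.5% of Control and the fall 0.63 ± 0.14 (SE) in log2 units by limma (adjusted p = 0.00293), smaller in size than the falls of Cnp, Mbp, Mag and Cldn11. The intervals of these changes overlapped, and the differences between genes were not tested.

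Bcas1 (ENSRNOG00000012906), which marks newly forming oligodendrocytes, was the most abundant of the 9 genes in both groups. It was at 372, 411, 384 and 309 FPKM in OGD replicates 1 to 4 and at 503, 449.7, 459 and 424 FPKM in Control replicates 1 to 4. All OGD libraries were below all Control libraries, by a small margin for OGD replicate 2 and Control replicate 4. The log2 change was -0.32 ± 0.09 (SE; limma, adjusted p = 0.0155), the smallest of the 7 falls. Of all tested genes 24.6% had a more negative log2 change. In RefSeq 2 genes overlap Bcas1, a pseudogene and a noncoding RNA, and 1 noncoding RNA gene each overlaps Mbp and Enpp6.

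Enpp6 (ENSRNOG00000009660), a choline-specific phosphodiesterase and another early mark of new oligodendrocytes, was at 1.098, 2.93, 1.43 and 1.28 FPKM in OGD replicates 1 to 4. In Control replicates 1 to 4 it was at 4.35, 4.70, 4.10 and 4.09 FPKM. The Control libraries agreed closely, with a coefficient of variation of 6.62%, while OGD replicate 2 was above the other OGD libraries and the coefficient was 49.98%. The log2 change was -1.03 ± 0.18 (SE; limma, adjusted p = 0.000825) on a scale that understates changes of low genes, and the OGD mean was 39.1% of the Control mean. The early genes Bcas1 and Enpp6 thus lay at opposite ends of the falls, at 80.4% and 39.1% of Control.

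**Figure D3:**
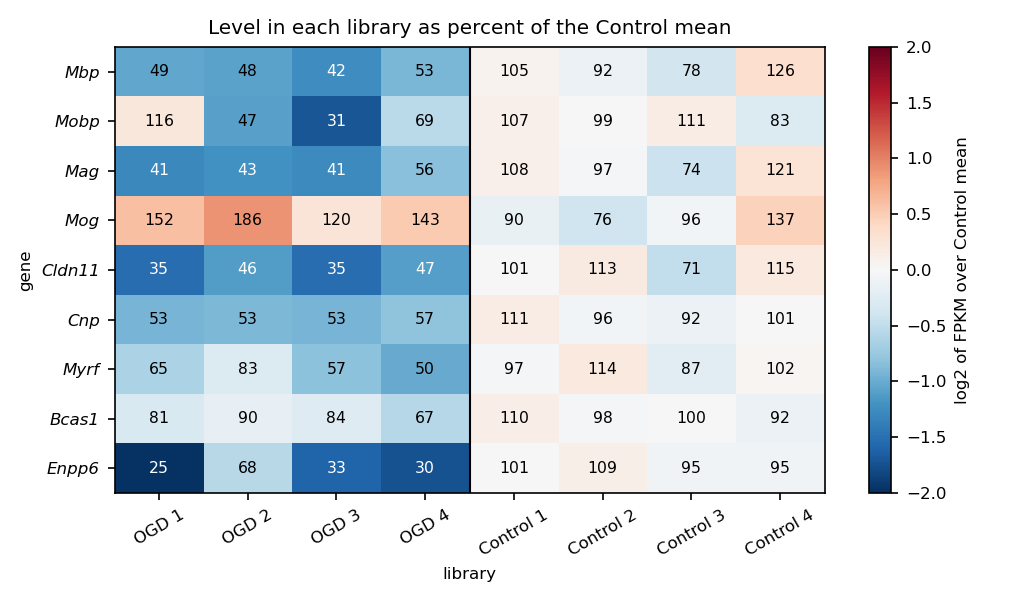
FPKM of each gene (rows) in each library (columns) as percent of that gene's Control mean, coloured by the log2 of that ratio; OGD libraries are left of the black line. Cnp holds between 52.6 and 57.4 percent in all OGD libraries, Enpp6 is at 68.0 percent in OGD replicate 2 and at 25.5 to 33.1 percent in the other 3, and Mog is above 100 percent in all 4.

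In order of level, the genes ran Bcas1, Cnp, Mbp, Myrf, Mag, Cldn11, Mog, Enpp6 and Mobp in OGD libraries, and Bcas1, Cnp, Mbp, Mag, Myrf, Cldn11, Enpp6, Mog and Mobp in Control libraries. In OGD the ranges of Myrf and Mag overlapped, as did each step from Cldn11 down to Mobp, so the order of these neighbours was not separated. In Control only Mag and Myrf overlapped. Bcas1 was higher than 99.0% of tested genes in OGD and 99.2% in Control, and Cnp than 97.8% in OGD and 99.0% in Control. Mbp was higher than 96.0% of tested genes in OGD and 98.1% in Control, while Mog was higher than 15.1% in OGD and 7.75% in Control and Mobp than 1.35% in OGD and 2.66% in Control. Together the 9 genes held 0.155% ± 0.00267 of summed FPKM in OGD and 0.236% ± 0.0127 in Control libraries (SD, n = 4 each), mostly from Bcas1, Cnp and Mbp.

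Libraries of a group did not rank alike for every gene. Control replicate 3 was lowest for 5 of the 9 genes (Mbp, Cnp, Mag, Cldn11 and Myrf) and highest for Mobp, and Control replicate 4 was highest for 4 (Mbp, Mag, Mog and Cldn11) and lowest for 3 (Mobp, Bcas1 and Enpp6). In OGD, replicate 4 was highest for Mbp, Cnp, Mag and Cldn11 and lowest for Myrf and Bcas1, and replicate 2 was highest for Mog, Myrf, Bcas1 and Enpp6. Mbp, Mag and Cldn11 thus shared their highest and lowest Control library and their highest OGD library, and Myrf, Bcas1 and Enpp6 had other orders.

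Ratios within a library set the level of a gene beside that of another. The ratio of Mag to Mbp was 0.0762 to 0.0956 in OGD and 0.0864 to 0.0964 in Control libraries, and that of Mbp to Cnp was 0.536 to 0.617 in OGD and 0.566 to 0.832 in Control libraries. Both ranges overlapped between groups, for Mbp to Cnp only through Control replicate 3 (0.566). The mean of Mbp to Cnp was 0.592 ± 0.0384 in OGD and 0.666 ± 0.115 in Control libraries (SD). The ratio of Bcas1 to Cnp was 1.96, 2.14, 2.03 and 1.497 in OGD replicates 1 to 4, and 1.26, 1.30, 1.39 and 1.17 in Control replicates 1 to 4. Bcas1 thus stood higher relative to Cnp in every OGD library. The ratio of Mog to Mag was 0.212 to 0.358 in OGD and 0.0647 to 0.108 in Control libraries, with no overlap. These ratios were chosen with the values known and carry no test.

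**Figure D4:**
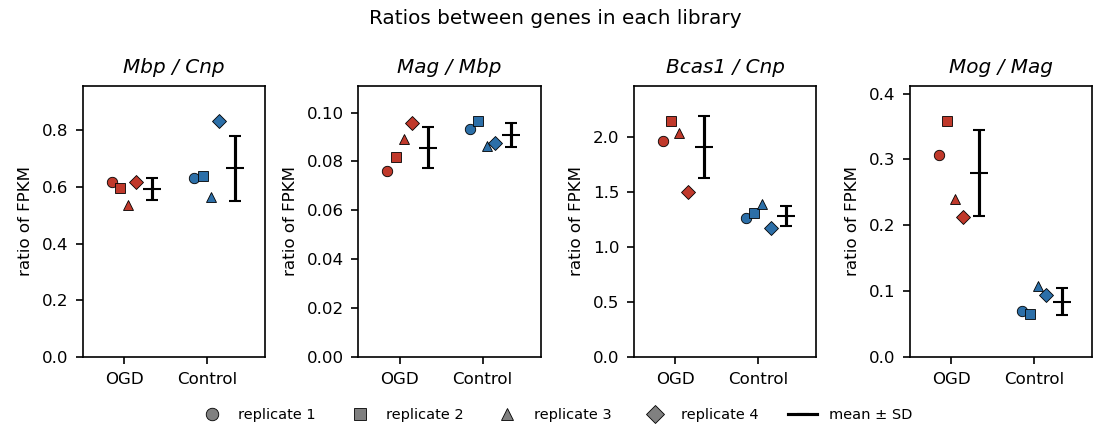
Ratio of FPKM between pairs of genes (vertical axes, linear from 0) in each OGD library (red, left) and Control library (blue, right), with the mean ± SD. Mbp to Cnp and Mag to Mbp overlap between groups; Bcas1 to Cnp and Mog to Mag are higher in all 4 OGD libraries.

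Other proteins of the sheath and its junctions were mixed. Of 22 tested genes of this list (28 matched), 10 were lower, 2 higher and 10 did not pass, with a median log2 change of -0.33 against -0.04 for all tested genes. The shares were 45.5% lower and 9.09% higher, against 26.8% and 22.7% of all tested genes. Gsn, the actin-severing protein gelsolin, fell by 0.63 (limma, adjusted p = 2.48e-05). Tspan2, a tetraspanin of early oligodendrocytes, was at 46.2 ± 4.74 FPKM in OGD and 31.9 ± 0.804 FPKM in Control libraries (SD, n = 4 each), a rise of 0.52 (limma, adjusted p = 0.000284). Gpm6b, a membrane glycoprotein, was at 213 ± 3.91 and 219 ± 3.497 FPKM in OGD and Control libraries, and Omg, a glycoprotein of oligodendrocytes and neurons, at 91.1 ± 5.30 and 88.2 ± 7.17 FPKM; neither passed (adjusted p = 0.582 and 0.614).

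Genes of committed precursors and newly formed oligodendrocytes, the stage that Bcas1 and Enpp6 mark, split evenly. Of 21 tested genes, 8 were lower, 7 higher and 6 did not pass, with a median of -0.10 against -0.04 for all tested genes. The shares were 38.1% lower and 33.3% higher, against 26.8% and 22.7% of all tested genes, and without Control replicate 4 only 4 genes were lower. Cyfip2, a regulator of actin assembly, rose by 0.69 (limma, adjusted p = 9.19e-06), with 189.5 ± 10.7 FPKM in OGD and 117 ± 3.01 FPKM in Control libraries. Ust, a sulfotransferase of proteoglycan chains, rose by 0.80 (adjusted p = 0.000113), with 15.6 ± 2.31 and 8.46 ± 0.446 FPKM.

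Genes known to activate Myrf or differentiation were lower in 6 of 19 cases and higher in 2, with 11 not past the test and a median of -0.06 against -0.04 for all tested genes. The share lower, 31.6%, was near the 26.8% of all tested genes, so the count is no result about this list; 10.5% were higher, against 22.7%. Without OGD replicate 1, 4 were higher, and with quantile normalization 5. Olig1, a helix-loop-helix factor of the lineage, was at 357 ± 28.0 FPKM in OGD and 794 ± 41.4 FPKM in Control libraries (log2 change -1.16, limma adjusted p = 1.40e-06). Smarca4, the motor of a chromatin remodelling complex, fell by 0.68 (adjusted p = 1.53e-05). Sox10, a factor that binds many myelin genes, was at 238, 256, 269.7 and 219 FPKM in OGD replicates 1 to 4, and at 249, 235, 238 and 212 FPKM in Control replicates 1 to 4, and did not pass (adjusted p = 0.494). Of 17 inhibitors of differentiation, 4 were higher, 4 lower and 9 did not pass, with a median of 0.17. The shares, 23.5% in each direction, were near the 22.7% higher and 26.8% lower of all tested genes, so these counts too are no result about the list. Without Control replicate 1 and OGD replicate 4 together, 7 were higher. Id2, which ties up helix-loop-helix factors, rose by 1.501 and Sox2, a factor of progenitor cells, by 0.83 (limma, adjusted p = 3.54e-07 and 7.09e-06). Tmem98, a membrane protein that blocks the self-cleavage of MYRF, was at 2.27, 2.31, 2.33 and 4.24 FPKM in OGD replicates 1 to 4, and at 5.33, 6.34, 6.00 and 6.05 FPKM in Control replicates 1 to 4 (log2 change -0.90, adjusted p = 0.000716); it was named after its values were seen.

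Proteins that bind or carry myelin messenger RNAs were lower in 6 of 14 tested cases (42.9%, against 26.8% of all tested genes). They were higher in 0 (against 22.7%), with a median of -0.20 against -0.04 for all tested genes. Hnrnph1, a splicing factor, fell by 0.59 (limma, adjusted p = 1.05e-05), with 176 ± 1.90 FPKM in OGD and 266 ± 4.31 FPKM in Control libraries (SD, n = 4 each). Qki, which stabilises Mbp messenger RNA and is listed as Qk, was at 33.9 ± 1.31 FPKM in OGD and 30.2 ± 3.72 FPKM in Control libraries and did not pass (adjusted p = 0.130); it too was named after its values were seen.

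**Figure D5:**
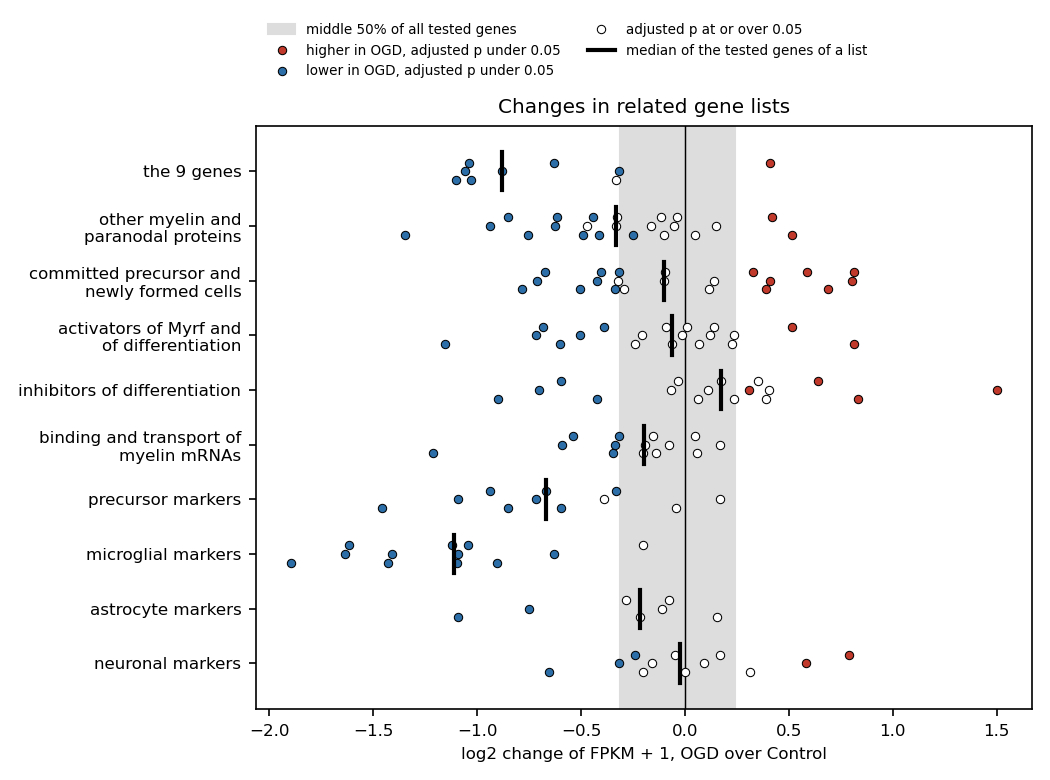
Log2 change of FPKM + 1, OGD over Control (horizontal axis), of each tested gene (points) in the 9 genes, related lists and marker lists (rows); the black bar is the list's median and the grey band the middle 50% of all tested genes. The 9 genes have a median of -0.88, other myelin and paranodal proteins of -0.33, and microglial markers of -1.11.

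Markers of other cell types, and of the precursors themselves, were read beside these genes. Of 12 tested microglial markers, 11 were lower (91.7%, against 26.8% of all tested genes) and 0 higher (against 22.7%). Their median log2 change was -1.11, and none was at 0 in all libraries. The summed level of these markers was 95.01 to 162 FPKM in OGD and 259 to 404 FPKM in Control libraries. Cx3cr1 and Csf1r, receptors of microglia, fell by 1.90 and 1.41 (limma, adjusted p = 1.77e-05 and 6.38e-05), and Fcer1g and C1qa were the most abundant of the list. Precursor markers were lower in 8 of 11 cases (72.7%, against 26.8% of all tested genes) and higher in 0 (against 22.7%). Their median was -0.67, and 1 was higher without Control replicate 2. The precursor markers had a summed level of 1044 to 1229 FPKM in OGD and 1514 to 1769 FPKM in Control libraries. Among them C1ql1 fell by 1.46 and Rlbp1 by 0.94, while Cntn1, an adhesion molecule at 349.9 ± 12.3 and 312 ± 27.5 FPKM in OGD and Control libraries, did not pass (adjusted p = 0.0787). The part of these shifts in the values of the 9 genes was not tested.

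Astrocyte markers summed to 128 to 142 FPKM in OGD and 146 to 161 FPKM in Control libraries. Of 7 tested genes, 2 were lower (Gfap and S100b) and 0 higher (against 22.7% of all tested genes). Only 1 was lower without Control replicate 2, 3 or 4, and 1 with a filter of 5 FPKM. The 28.6% lower was near the 26.8% of all tested genes, so the count lower is no result about the list. Neuronal markers summed to 312 to 399 FPKM in OGD and 329 to 401 FPKM in Control libraries, with 3 of 12 lower and 2 (Tubb3 and Syt1) higher. The share lower was near the 26.8% of all tested genes, and 16.7% were higher, against 22.7%. These neuronal counts are thus no result about the list. No vascular, stromal or Schwann cell marker passed the filter; these lists summed to at most 0.323 and 1.26 FPKM in OGD and to at most 0.437 and 2.41 FPKM in Control libraries. By share of summed FPKM, exact two-sided permutation gave p = 0.0286, the smallest that 4 against 4 allows, for the precursor, microglial, astrocyte and Schwann cell lists (adjusted p = 0.0429 over 6 lists, all lower in OGD). The same exact test gave p = 0.886 for the neuronal and p = 0.143 for the vascular and stromal list (adjusted p = 0.886 and 0.171). The Schwann cell sum is made of genes under 1 FPKM, and 2 of its 6 markers were at 0 throughout. Among them Egr2 was at 0.135 ± 0.0473 FPKM in OGD and 0.568 ± 0.0371 FPKM in Control libraries, while Ngfr went the other way (0.141 and 0.0788 FPKM). The log2 ratio of shares was -0.12 for the astrocyte list and -1.31 for the microglial list.

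The genes whose pattern over the 8 libraries was most like that of 4 of the genes were found by Pearson's r of log2(FPKM + 1) among tested genes of at least 5 FPKM on average. For Cnp they were Chfr (r = 0.995), Pnrc2 (0.995) and Gna12 (0.994), and for Myrf they were Rpap1 (0.988), Zfp488 (0.970) and Pacs2 (0.966). Zfp488, a zinc finger repressor of the oligodendrocyte lineage, was at 8.90, 10.4, 8.04 and 6.24 FPKM in OGD replicates 1 to 4, and at 11.6, 14.1, 11.7 and 11.4 FPKM in Control replicates 1 to 4. Like Myrf it was highest in replicate 2 and lowest in replicate 4 among OGD libraries. For Enpp6 they were a row named Eci2 and Eci3 together (0.989), Gdf11 (0.986) and Dll1 (0.984), and for Mog they were Troap (0.978), Lmf2 (0.974) and Plekha1 (0.970). With 8 libraries in 2 groups and 49.5% of tested genes changed, high values of r are common, and they are given as a description.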

How the data were processed

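Per the file headers, the deposited values are FPKM, 1 per gene and library in a single table. Libraries were strand-specific (Agilent SureSelect), per the labels' protocols. Trimmomatic, FastQC and the build rn6 (Rnor_6.0) are named in the submitters' processing notes; the aligner and the FPKM program, with its strand setting, are not named in the sources used here. The machine was an Illumina MiSeq, per the series' design text. FPKM holds no counts, so a count test was not used, and FPKM divides by the library total, so abundant genes move all others. Several genes used by most cells (Hprt1, Rps6) are listed at 0 throughout, so a 0 may be a failed estimate.

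Samples were grouped by title into 4 OGD and 4 Control libraries; no pair held identical values. A gene was tested where 4 or more samples reached 1 FPKM (11149 genes), as log2(FPKM + 1) with limma 3.58.1 in R 4.3.3 (trended, group only), with Benjamini-Hochberg adjustment over all of them and a threshold of 0.05. The procedure was tested on simulated data. Marker shares were compared by exact two-sided permutation. Relative depth came from genes of at most 0.5 FPKM, whose ratios between libraries were whole-number ratios in 72.0% to 75.8% of cases (tolerance 0.005 on the log2 scale). Protein-coding genes of the mitochondrial genome held 20.4% to 30.4% of summed FPKM in OGD and 25.1% to 27.9% in Control libraries. Upstream windows and names of overlapping genes came from RefSeq (GRCr8). Of the list entries 1 was matched by another symbol and 7 were unmatched. Named genes were the 9 genes, the 2 smallest p of each list, the 2 highest of each marker list, strict myelin proteins, and the 3 genes most like Mog, Myrf, Cnp and Enpp6. The 9 genes, the lists, the motifs and the tests were chosen with earlier results of these data known. Alternatives were another filter (none, 5 FPKM), pseudocount (0.1, 0.01), quantile normalization, median-centring, rescaling outside mitochondrial genes, limma without a trend, a block for the replicate number, leaving out each library, Control 1 and OGD 4 left out together, and a test against a 1.5-fold change. Some genes that the rule names are not reported here. Pdgfra, Cspg4, Sox10, Tmem98 and Qki were named outside that rule, after their values were seen. Other work used Python 3.11.15 with numpy 2.4.6, pandas 2.3.3 and, for plots, matplotlib 3.10.9.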

Additional observations from a re-analysis of the deposited data

Results flagged for a closer look

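Mag in OGD replicate 4 was at 12.2 FPKM, apart from the 8.90 to 9.38 FPKM of the other OGD libraries, a gap large for the range of 4 values. It was the 1 such case among 18 groups of 4 libraries examined (9 genes in 2 groups), where chance gives about 0.9. It was below all Control libraries too, and Mag passed the test with and without it.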

How the results depend on the processing

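The falls of Mbp, Cnp, Mag, Cldn11, Myrf, Bcas1 and Enpp6 kept their direction in every alternative that gave a value, and each passed the test whichever library was left out. Their log2 changes then ranged from -1.15 to -0.92 (Mbp), -0.92 to -0.83 (Cnp), -1.19 to -0.96 (Mag), -1.24 to -1.03 (Cldn11), -0.76 to -0.53 (Myrf), -0.37 to -0.24 (Bcas1) and -1.23 to -0.93 (Enpp6). Mog ranged from 0.33 to 0.52, past the test in 2 of 8 cases, and Mobp from -0.48 to -0.21, past it in 1 of 8. Of the 9 genes 0 to 1 were thus called higher and 7 to 8 lower.

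A test against a change of 1.5-fold left 1 of the 9 genes called lower (Cnp) and 0 higher. Mbp (-1.04, adjusted p = 0.0681), Mag (-1.06, 0.0846), Cldn11 (-1.10, 0.0683), Enpp6 (-1.03, 0.252), Myrf (-0.63, 1), Bcas1 (-0.32, 1) and Mog (0.41, 1) did not pass. It called 207 of the 11149 tested genes higher and 179 lower, against 2527 (22.7%) and 2992 (26.8%) in the main test. Of the 88 tested genes of the 5 pathway lists it called 1 higher and 2 lower, against 14 and 31. That test asks for a larger change by its construction.

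Mog (0.41) also lost its call with no filter (adjusted p = 0.0686) and, at 0.38, with median-centring (0.0510), and at 0.40 without Control 1 and OGD 4 together (0.101), so that 0 of the 9 genes were then called higher; the cause was not tested. A filter of 5 FPKM removed Mog, Mobp and Enpp6. Over all tested genes, same-numbered libraries did not deviate together (r of deviations -0.222, 0.163, 0.0105 and 0.0902). Only OGD replicate 2 and Control replicate 4 had their highest r with the library of their own number. Mbp and Cldn11, however, each ranked the replicate numbers in the same order in OGD and in Control. The main test did not pair libraries, and whether the numbers pair them is unknown. With the replicate number as a block, 2497 genes were higher and 3012 lower, and Mog was at 0.41 (limma, adjusted p = 0.0580). Of the 9 genes 0 were then higher and 7 lower. The block lowered the SE of Mbp from 0.130 to 0.0775, of Mag from 0.143 to 0.0973 and of Cldn11 from 0.148 to 0.105. That of Myrf went from 0.136 to 0.0984, while those of Cnp (0.0718 to 0.0731) and Mog (0.148 to 0.157) rose. The block also gave 7 inhibitors of differentiation higher, against 4. Total depth is unknown, so counting error at low levels (Mog, Mobp, Enpp6) could not be given.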
